A study of Rattus norvegicus with 16 samples.

Results

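The proteasome and the enzymes that attach and remove ubiquitin were followed in rat kidney through all probe sets (the groups of oligonucleotides on an array that read 1 transcript) that carried a single gene symbol starting with Psma, Psmb, Psmc, Psmd, Psme, Ube2 or Usp. The interferon-induced subunits Psmb8 and Psmb9, which have 3 probe sets, were left out by that choice, and 7 probe sets that named several genes were also left out. This gave 64 probe sets for 39 genes, out of 8740 probe sets for 4736 genes. The array holds only part of these families, and the deubiquitinases, for example, were read by 4 probe sets for 3 genes.

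The study compared both kidneys of 8 rats on 16 one-colour arrays of total kidney RNA. The right kidney was the treated organ: it is labelled ACTH in rats 1 and 5, DEX in rats 3 and 7, and saline in the other animals, rats 2, 4, 6 and 8. As the untreated organ, the left kidney of the same animal served as its control, so each left kidney comes from an animal whose other kidney was treated. ACTH is the pituitary hormone that drives glucocorticoid release from the adrenal cortex, and the labels do not expand DEX. The labels state no strain, sex, age, dose, route or duration. The titles assign 4 rats to saline, while the design text gives the same small number of rats to each of the treatments, and the titles were followed. With 2 ACTH rats and 2 DEX rats, the spread within a treated group is poorly known. The p-values use a spread pooled over all 8 rats, saline animals included, and steadied by the other probe sets. They do not reach beyond these animals.

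The proteasome is the main protease of the cytosol and nucleus. Its barrel-shaped 20S core is built from alpha subunits (Psma), which form the outer rings and the gate, and beta subunits (Psmb), some of which cut peptide bonds. The 19S cap holds a ring of ATPases (Psmc) that unfold substrates, and non-ATPase subunits (Psmd) that bind and release ubiquitin chains; the Psme proteins are alternative activators of the core. Substrates are marked by ubiquitin-conjugating enzymes (Ube2), together with ligases, and deubiquitinases such as the Usp proteins take the mark off again. Glucocorticoids are known to raise the expression of many of these genes in wasting skeletal muscle, and tubular cells rely on the same system to turn over transporters.

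Promoters were read for the members from RefSeq (build GRCr8), each as 250 bases before and 50 after the annotated start; 38 of the 39 genes had an entry and Psma7 had none. The promoters printed here are those of 3 subunits of the 20S core and of Ube2b, the member with the smallest p in the ACTH comparison. The probe sets of the whole core moved together in some of the animals, which does not single out these 3 subunits. Capitals mark the core of the antioxidant response element (TGACNNNGC), the site through which Nfe2l1 is known to drive proteasome genes, and the CCAAT box, each searched on both strands.
Psmb2, chr5:144254808-144255107, plus strand: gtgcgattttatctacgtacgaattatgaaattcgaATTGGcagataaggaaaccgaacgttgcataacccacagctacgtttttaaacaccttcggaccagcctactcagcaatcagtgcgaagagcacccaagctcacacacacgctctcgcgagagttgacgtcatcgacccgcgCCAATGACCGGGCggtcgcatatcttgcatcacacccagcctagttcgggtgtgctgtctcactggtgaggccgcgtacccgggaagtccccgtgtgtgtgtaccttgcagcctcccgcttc
Psmb5, chr15:32047330-32047629, minus strand: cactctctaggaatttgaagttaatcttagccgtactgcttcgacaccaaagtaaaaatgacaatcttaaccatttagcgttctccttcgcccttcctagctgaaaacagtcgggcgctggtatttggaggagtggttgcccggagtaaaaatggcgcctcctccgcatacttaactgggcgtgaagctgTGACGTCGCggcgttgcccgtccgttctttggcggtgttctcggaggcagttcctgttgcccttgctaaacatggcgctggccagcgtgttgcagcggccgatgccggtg
Psma2, chr17:55260392-55260691, minus strand: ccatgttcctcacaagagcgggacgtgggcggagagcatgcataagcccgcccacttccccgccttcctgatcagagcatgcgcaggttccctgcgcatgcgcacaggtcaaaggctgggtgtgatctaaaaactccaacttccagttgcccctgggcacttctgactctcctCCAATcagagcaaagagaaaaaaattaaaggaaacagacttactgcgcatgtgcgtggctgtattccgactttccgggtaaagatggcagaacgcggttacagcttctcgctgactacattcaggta
Ube2b, chr10:36763894-36764193, minus strand: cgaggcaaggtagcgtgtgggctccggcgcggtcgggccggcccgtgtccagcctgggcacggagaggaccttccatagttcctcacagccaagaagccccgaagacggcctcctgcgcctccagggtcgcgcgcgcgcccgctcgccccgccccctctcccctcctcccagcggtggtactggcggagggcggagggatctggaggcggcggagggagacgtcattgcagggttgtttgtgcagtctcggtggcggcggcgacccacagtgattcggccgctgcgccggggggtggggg
In the Psmb2 window a CCAAT box at position 179, counted from 1 at the 5′ end, overlaps the antioxidant core at position 183, and another CCAAT box lies on the opposite strand at position 37. The Psmb5 window holds the antioxidant core at position 191 and, in lower case, a glucocorticoid receptor half-site (TGTTCT) at position 226. Psma2 has a CCAAT box at position 174, and the Ube2b window, with a GC content of 72.7%, holds none of the searched motifs.

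Across the members, the antioxidant core was found in 8 of 38 promoters, against 12.1% of all 33469 promoters of the same length. It was present in 2 of the 10 core subunit promoters, the printed Psmb2 and Psmb5. The 19S cap had it in 1 of 11, the activators in 1 of 3 and the ubiquitin enzymes in 4 of 14. The CCAAT box was found in 16 of 38 members, against 37.5% of all promoters. It was present in 7 of the 10 core subunit promoters, in 5 of 11 for the 19S cap, in 0 of 3 for the activators and in 4 of 14 for the ubiquitin enzymes. The receptor half-site occurred in 5 of 38 members against 20.7% of all promoters, and the palindrome core of the glucocorticoid receptor (ACANNNTGT) in 3 of 38 (Psma6, Ube2h and Usp40) against 6.857%. The members' promoters had a median GC content of 59.8%, against 51.7% over all promoters, and this difference was not taken into account in these shares. A match describes letters in a window and no binding was measured.

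The deposited values were taken as linear signals from their range, and the median of each array lies between 76.0 and 82.1. Whether they were scaled to reach this is not stated. All 8 rats fell into 2 groups of arrays that the labels do not explain: rats 1 to 4 and rats 5 to 8 separated on the first principal component, which held 45.7% of the variance, and each group contains 1 ACTH rat, 1 DEX rat and 2 saline rats. The log2 ratio of the 3′ to the 5′ probe sets of Gapdh, a sign of RNA integrity and labelling, was 0.39 to 0.93 in rats 1 to 4 and 0.05 to 0.27 in rats 5 to 8. Kidney markers were present on every array, with a mean log2 level of the 8 tested proximal tubule markers between 10.49 and 10.88. All values are from whole kidneys, where fewer cells of a type and less RNA per cell cannot be told apart.

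Of the members, 54 of the 64 probe sets, for 34 of the 39 genes, were bright enough to be tested. Signals of different probe sets depend on their oligonucleotides and were not ranked against each other. Of the 20S core, 21 of 24 probe sets for all 11 genes were tested, with mean signals from 148.8 to 1401. The 19S ATPases had 6 of 6 probe sets tested (166.8 to 474.4) and the non-ATPases 9 of 11 (231.1 to 662.5). Psme1 and Psme2, the activator pair that interferon is known to induce, had mean signals of 342.3 to 1510 on 3 of 5 activator probe sets. The conjugating enzymes had 11 of 14 probe sets tested (63.96 to 574.4), and the deubiquitinases Usp19, Usp37 and Usp40 had all 4 (80.65 to 202.6).

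The 10 dim probe sets included every probe set of Psmd10, Psme4, Ube2d2b, Ube2e3 and Ube2q2, so those 5 genes have no test. For Psma1, Psma5, Psma6, Psmd1 and Psme1, 1 probe set was dim while another was tested: the Psmd1 probe set U57050_at had a mean signal of 51.1, and U57050_g_at one of 605.

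**Figure D1:**
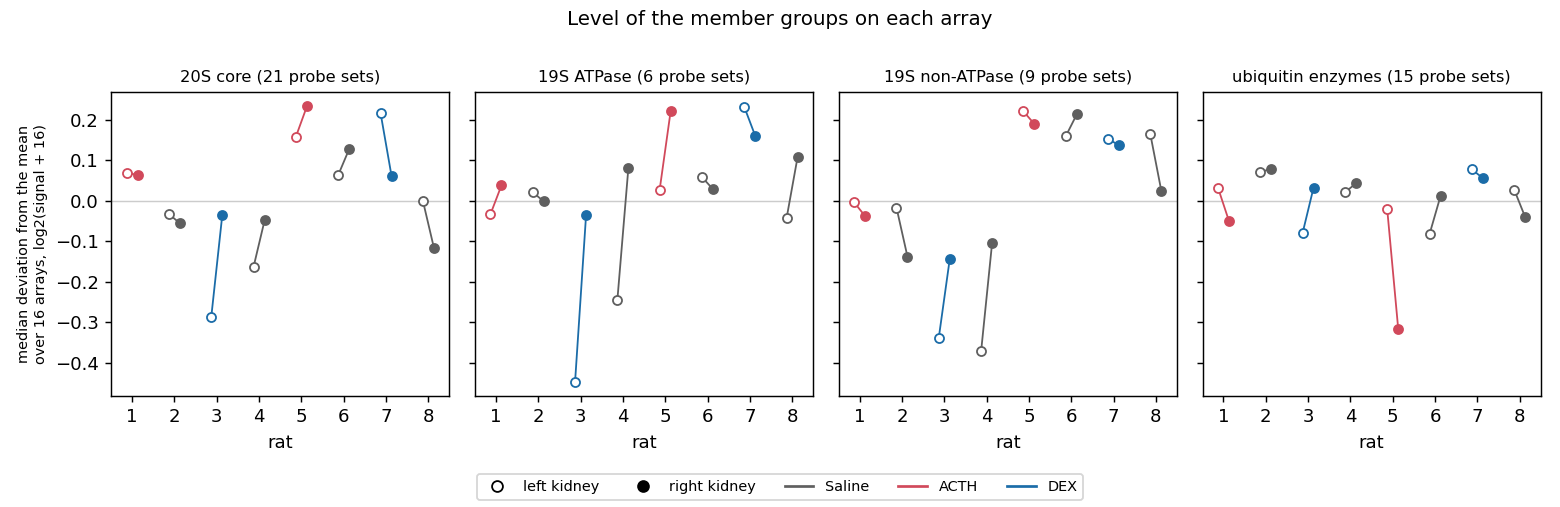
Median deviation of the tested core, ATPase, non-ATPase and ubiquitin enzyme probe sets from their mean over the 16 arrays (log2 units, vertical axis), by rat (horizontal axis) with left and right kidneys marked. The left kidneys of rats 3 and 4 are the lowest for the 20S core, at -0.29 and -0.16, and for the 19S ATPases, at -0.45 and -0.24.

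In the untreated left kidneys the proteasome members did not have one level in all 8 animals. The median deviation of the 21 core probe sets from their own means was -0.29 in rat 3 and -0.16 in rat 4, on the log2 scale, and lay between -0.03 and 0.22 in the other 6 left kidneys. The 6 ATPase probe sets stood at -0.45 in rat 3 and -0.24 in rat 4, and the 9 non-ATPase probe sets at -0.34 and -0.37. The left kidneys of rats 3 and 4, a DEX rat and a saline rat, were therefore low for the core and for both classes of cap subunits, while the 3 activator probe sets stood at 0.00 in rat 3 and -0.08 in rat 4, inside the range of the other left kidneys (-0.12 to 0.13).

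In the left kidneys, rats 5 to 8 had higher signals than rats 1 to 4 for much of the proteasome. Over the left kidneys the median log2 difference was 0.26 for the 39 tested proteasome probe sets, -0.01 for the 15 ubiquitin enzyme probe sets and 0.03 for all 5244 tested probe sets. Among the members, 17 were higher in every left kidney of rats 5 to 8 than in any of rats 1 to 4. Another 4 were lower. Together this is 38.9% of the 54, close to the 35.8% of all tested probe sets (1026 higher and 850 lower). The median deviations of the core overlapped between these groups of rats in both kidneys. On the left they were -0.29 to 0.07 in rats 1 to 4 and 0.00 to 0.22 in rats 5 to 8. On the right they were -0.06 to 0.06 and -0.12 to 0.23. The ATPases also overlapped in the right kidneys, at -0.04 to 0.08 and 0.03 to 0.22. There the non-ATPases did not overlap, at -0.14 to -0.04 in rats 1 to 4 and 0.02 to 0.21 in rats 5 to 8. The ATPase Psmc3 had left kidney signals of 316 ± 42.8 (SD, n = 4) in rats 1 to 4 and 593 ± 42.7 (SD, n = 4) in rats 5 to 8. For Psmd4, the ubiquitin receptor of the cap, the 3 probe sets were all higher in rats 5 to 8, one of them at 504 ± 89.7 against 823 ± 42.7 (SD, n = 4 each).

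Psma2, an alpha subunit of the core, showed how far this depended on the probe set. Its probe set rc_AI170403_at read 340 ± 43.8 in the left kidneys of rats 1 to 4 and 106 ± 20.9 (SD, n = 4 each) in those of rats 5 to 8, a log2 difference of -1.55, and it was the single tested member with a difference beyond 2-fold. The other probe sets of Psma2 did not separate in this way: E03358cds_g_at ranged from 381 to 644 in rats 1 to 4 and from 592 to 790 in rats 5 to 8. These groups of rats were seen in the data and are no treatment groups, so the differences between them were not tested.

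The change from left to right kidney within a rat was similar across the members of a role in some animals, and it did not follow the treatment. In DEX rat 3 all 21 core probe sets were higher in the right kidney, with a median log2 change of 0.32, and in saline rat 4 all 21 were higher, with a median of 0.18. The other DEX animal, rat 7, had 2 of 21 higher and a median of -0.13. Saline rat 8 resembled rat 7, with 3 of 21 higher and a median of -0.12, and saline rats 2 and 6 had medians of -0.01 and 0.01. ACTH rats 1 and 5 had medians of -0.08 and 0.02, inside the range of the 4 saline rats.

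**Figure D2:**
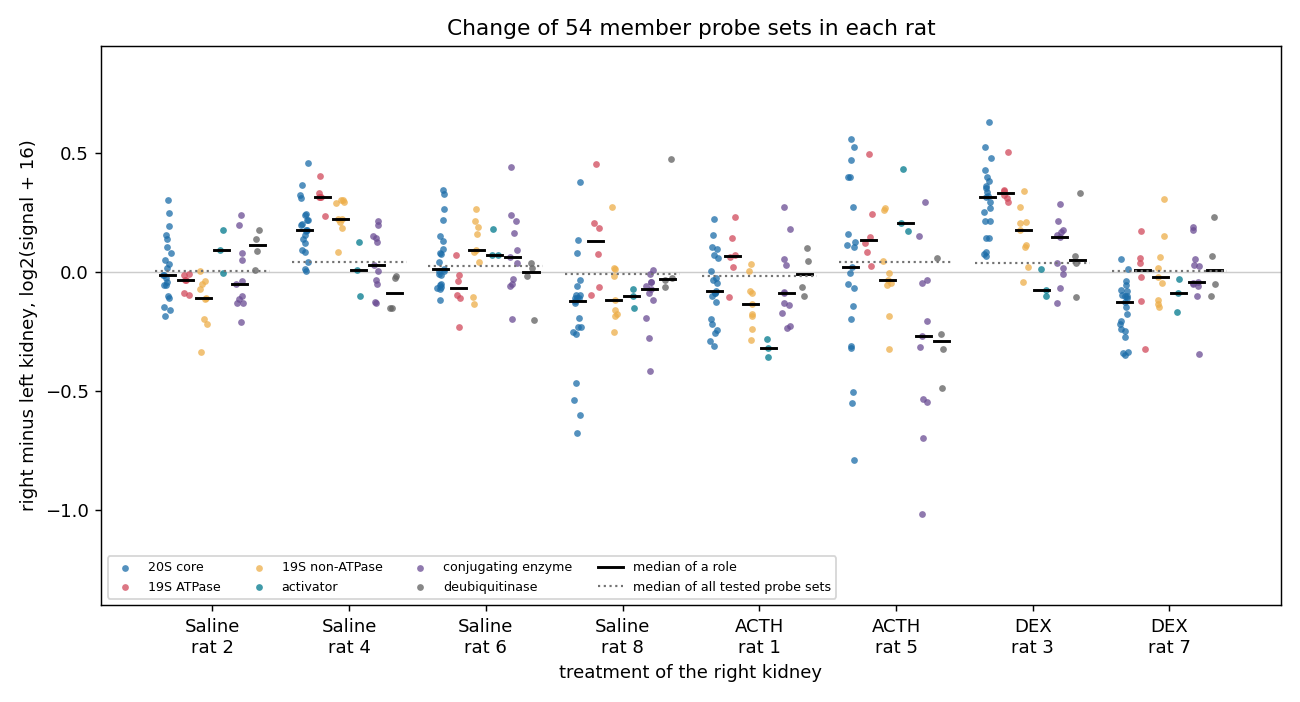
Change from left to right kidney (log2, vertical axis) of every tested member probe set, by rat and treatment (horizontal axis), with each point a probe set, each bar the median of a role and the dotted line the median of all tested probe sets. In rats 3 and 4 all 21 core probe sets lie above 0, while in rats 7 and 8 only 2 and 3 of the 21 do.

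The same 2 animals had positive changes for the 19S cap. Their left kidneys were the low ones, and their right kidneys were not high. The right kidneys of rats 3 and 4 had median deviations of -0.03 and -0.05 for the core. For the ATPases these were -0.04 and 0.08, and for the non-ATPases -0.14 and -0.10. The left kidneys stood at -0.29 and -0.16, -0.45 and -0.24, and -0.34 and -0.37. All 6 ATPase probe sets were higher in the right kidney of rats 3 and 4, with medians of 0.33 and 0.32, and 8 and 9 of the 9 non-ATPase probe sets were higher, with medians of 0.18 and 0.22. The 11 conjugating enzyme probe sets had medians of 0.15 and 0.03 in those rats. Across all 54 members, 47 were higher in the right kidney in rat 3 (87%) and 45 in rat 4 (83.3%), where 55.5% and 57.8% of all 5244 tested probe sets were higher. In rats 7 and 8 it was 16 and 12 of the 54 members (29.6% and 22.2%), against 51.7% and 48.5% of all tested probe sets.

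In rats 3 and 4 the right kidney also had higher scores for markers of 2 tubule classes. The mean log2 change over the 8 tested proximal tubule markers (of 9 listed) was 0.19 in rat 3 and 0.39 in rat 4, and -0.11 to 0.14 in the other 6 rats. Over the 6 tested thick limb and distal tubule markers (of 7) it was 0.44 and 0.26 in rats 3 and 4 and -0.19 to 0.21 elsewhere. The fat marker score (7 of 9 genes tested), which ranged from 6.80 to 8.56 in left kidneys, had changes of -1.28 and -0.32 in these 2 rats, but also of -1.28 in rat 7 and -1.12 in rat 6, and of 0.23 to 1.64 in the other rats. Podocyte markers (2 of 5 genes tested) were lower on the right in rats 3 and 4 alone, at -0.21 and -0.11 against 0.05 to 0.19 in the other 6 rats, and collecting duct markers had changes of 0.00 and 0.06. The part of these tissue differences in the proteasome values was not tested.

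In ACTH rat 5 most conjugating enzyme and deubiquitinase probe sets were lower in the right kidney, while the proteasome was mixed. There the 11 conjugating enzyme probe sets had a median change of -0.27, with 2 of 11 higher in the right kidney, and the 4 deubiquitinase probe sets a median of -0.29, with 1 of 4 higher, while the core had a median of 0.02 and all 6 ATPase probe sets were higher, with a median of 0.13. The core median hides a wide range: 11 of 21 core probe sets were higher, and changes ran from -0.79 (Psma2) to 0.56 (Psmb4). Psma4 stood at -0.55, near the lowest ubiquitin enzymes. The non-ATPases had a median of -0.03, with 3 of 9 higher. In the other ACTH animal, rat 1, the medians were -0.09 for the conjugating enzymes and -0.01 for the deubiquitinases. The saline rats had conjugating enzyme medians of -0.07 to 0.06, so both ACTH rats lay below them, rat 1 by little. Their deubiquitinase medians were -0.09 to 0.11, and rat 1 lay inside that range. The right kidney of rat 5 also had higher scores for collecting duct markers (0.68, over 7 of 7 genes), red cell markers (0.88, over 2 of 4) and smooth muscle markers (0.48, over 5 of 5) than its left kidney, and the right kidney of rat 1 a higher fat score (1.64). Their part in the values of the ubiquitin enzymes was not tested.

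To separate the treatment from the animal, the right minus left change in the treated rats was set against that in the saline rats in a limma model with a term for each rat, with Benjamini-Hochberg adjustment over all 5244 tested probe sets. For ACTH over saline, 26 probe sets of the array (0.496%) passed an adjusted p of 0.05, and 0 of the 54 members did; the lowest adjusted p among members was 0.453. At an unadjusted p under 0.05 the members gave 1 of 54, where 9.44% of all tested probe sets were found. The members' median effect was -0.08 on the log2 scale, with 13 of 54 positive and a range of -0.55 to 0.21, against a median of 0.00 over all tested probe sets. This median ranged from -0.12 without rat 8 to -0.03 without rat 4 when 1 rat was left out, both of them saline animals, and it was -0.04 without ACTH rat 1. It had the other sign, at 0.03, when the right kidneys were compared without reference to the left ones.

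By role, the median ACTH effect was -0.06 for the 20S core (6 of 21 positive), 0.03 for the ATPases (3 of 6), -0.11 for the non-ATPases (1 of 9), -0.07 for the activators (1 of 3), -0.14 for the conjugating enzymes (2 of 11) and -0.12 for the deubiquitinases (0 of 4). The 95% interval of the effect lay within 1.5-fold in either direction for 41 of 54 members (75.9%), against 64.7% of all tested probe sets, and within 2-fold for 53 of 54. For most members, an ACTH effect beyond 1.5-fold thus lies outside the interval, while smaller effects could not be resolved with a median standard error of 0.18.

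**Figure D3:**
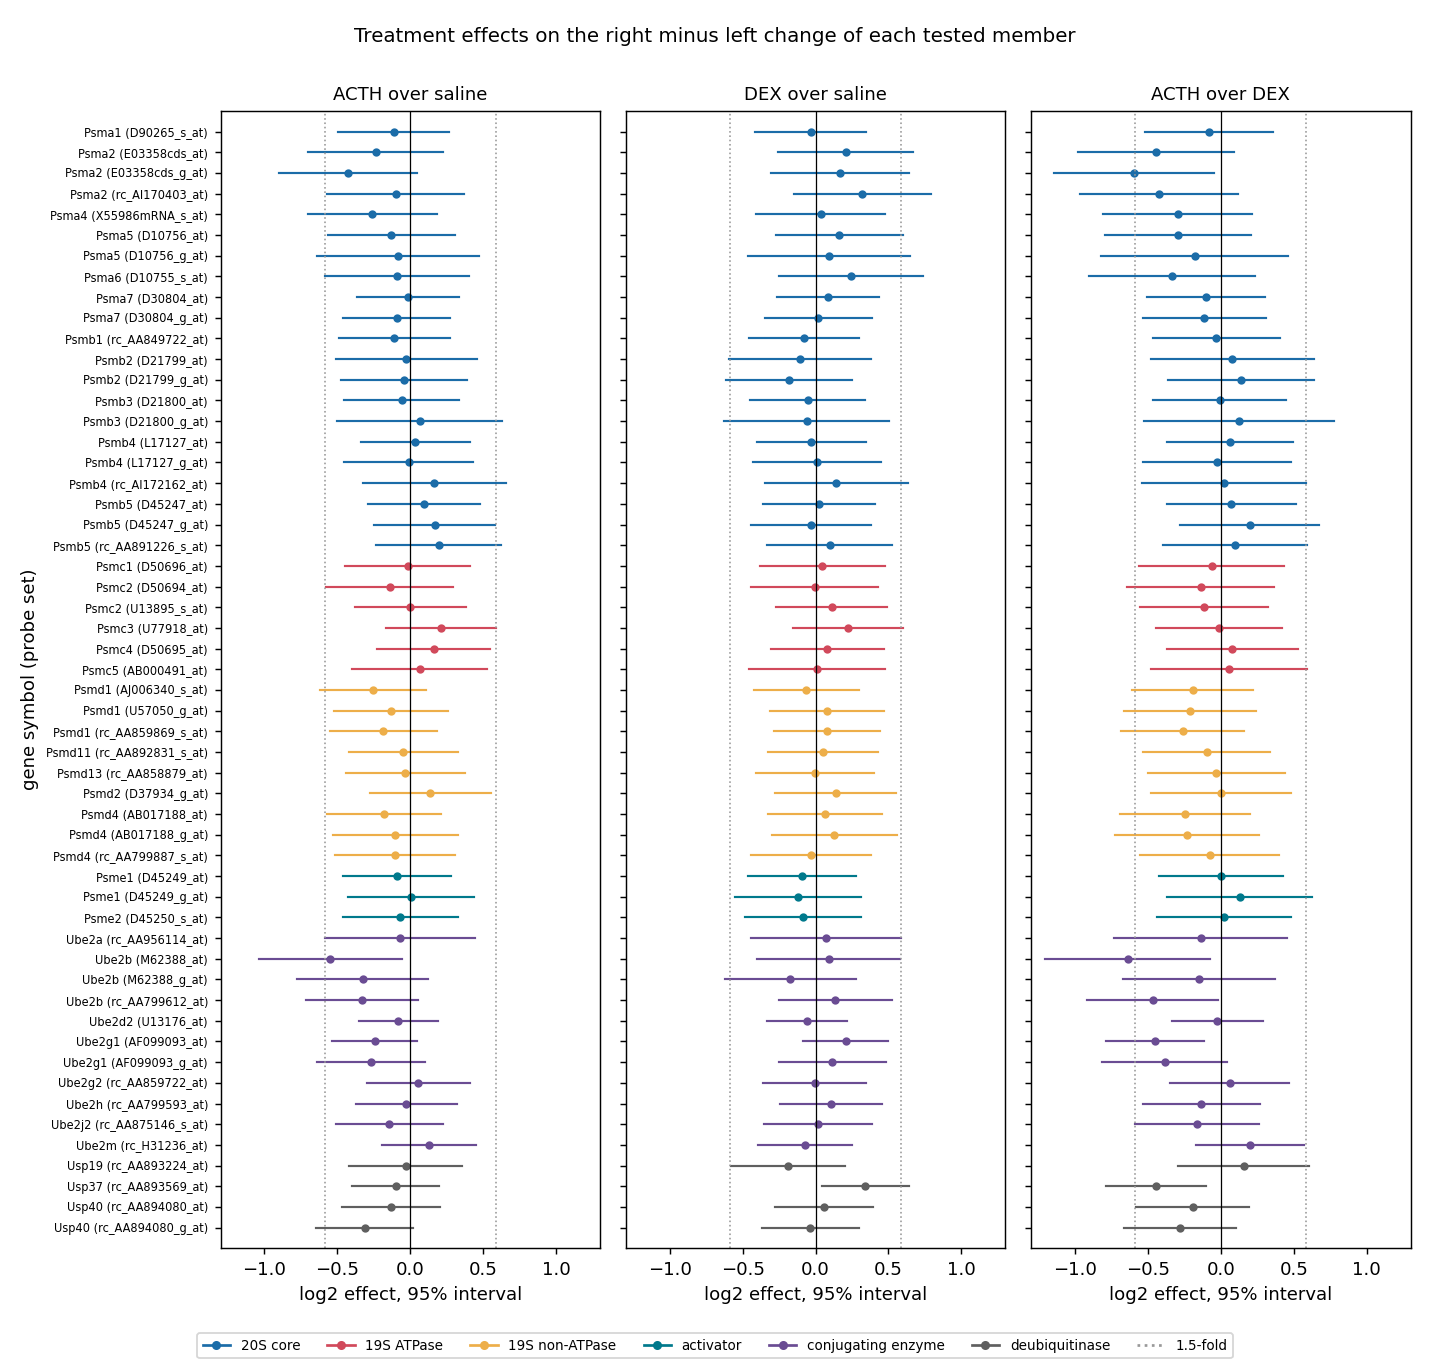
Effect of ACTH over saline, DEX over saline and ACTH over DEX (log2, with 95% intervals) for the member probe sets, arranged by role. None of the 54 members passes an adjusted p of 0.05 in any of the 3 comparisons, and the member medians are -0.08, 0.04 and -0.10.

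Ube2b, the Rad6-type conjugating enzyme that ubiquitinates histone H2B, had the smallest p for ACTH. On M62388_at the left kidneys of ACTH rats 1 and 5 had signals of 426 and 667, and the right kidneys 399 and 321. In the 4 saline rats the left kidneys gave 396, 421, 582 and 570 and the right kidneys 420, 422, 562 and 547. Rat 5 alone had a right kidney far below its left one, and in rat 1 the difference was little larger than in the saline animals.

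The changes were -0.09 and -1.02 in the ACTH rats and -0.06 to 0.08 in the saline rats, so the groups did not overlap, and the limma effect was -0.55 ± 0.23 (SE; adjusted p = 0.453). The other Ube2b probe sets had effects of -0.33 ± 0.18 (rc_AA799612_at) and -0.32 ± 0.21 (M62388_g_at), with changes of -0.17 and 0.05 in rat 1 and of -0.70 and -0.53 in rat 5. Without rat 1 the M62388_at effect was -1.01 with an adjusted p of 0.0405, and without rat 5 it was -0.08. Rats 1 to 4 alone gave an effect of -0.13 and rats 5 to 8 alone one of -0.96. All 3 probe sets of Ube2b were thus low in the right kidney of 1 ACTH animal.

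**Figure D4:**
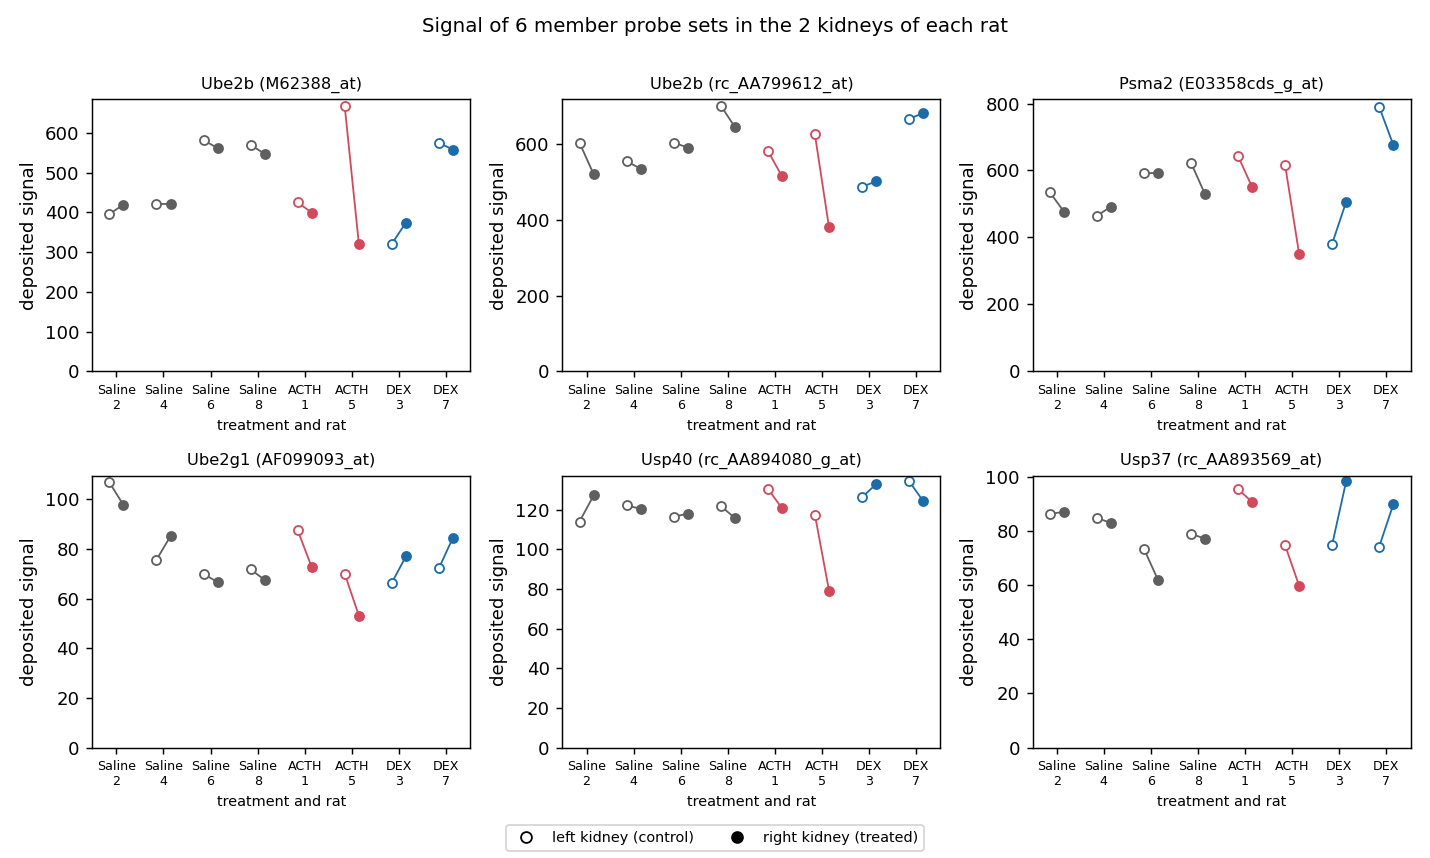
Signals (linear, vertical axis) of 6 member probe sets in the left and right kidney of each rat, joined by a line and coloured by treatment. For Ube2b the line drops from 667 to 321 in ACTH rat 5, and no other rat has a comparable step.

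Psma2 was the 20S subunit with the lowest ACTH values. On E03358cds_g_at the signals in ACTH rats 1 and 5 were 644 and 617 in the left and 550 and 350 in the right kidney. Saline rats 2, 4, 6 and 8 gave 536, 464, 592 and 624 on the left and 477, 492, 593 and 529 on the right. The change in rat 1 (-0.22) lay inside the saline range of -0.23 to 0.08, and that in rat 5 (-0.79) below it.

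The effect on this probe set was -0.43 ± 0.22 (SE; limma adjusted p = 0.558), and the other Psma2 probe sets had effects of -0.24 ± 0.21 and -0.10 ± 0.22. Of the other core subunits, Psma4 had an effect of -0.26 ± 0.20. Psmb5, which carries the chymotrypsin-like activity, had effects of 0.20 ± 0.20, 0.17 ± 0.19 and 0.09 ± 0.18 on its 3 probe sets. The Psmb5 difference also came from rat 5, where the changes were 0.40 to 0.53 while those in rat 1 were -0.09 to 0.06.

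In the 19S cap the ATPase Psmc3 had an ACTH effect of 0.21 ± 0.17 and Psmc4 one of 0.16 ± 0.18. Psmd1, a large scaffold subunit, had effects of -0.26 ± 0.17, -0.18 ± 0.17 and -0.13 ± 0.18 on its 3 tested probe sets. Psmd4 had -0.18 ± 0.18, -0.11 ± 0.19 and -0.10 ± 0.20. Every one of these intervals includes 0, and the adjusted p-values lie between 0.706 and 0.946.

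Ube2g1, which builds Lys48-linked chains, was the other conjugating enzyme whose ACTH changes lay below all saline rats. On AF099093_at, a dim probe set, the ACTH rats had 87.6 and 70.0 on the left and 72.7 and 53.2 on the right. The saline rats had 107, 75.7, 70.0 and 71.8 on the left and 97.7, 85.2, 66.7 and 67.6 on the right. Both ACTH rats were lower on the right, at -0.23 and -0.31, while saline rats ranged from -0.11 to 0.14.

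The Ube2g1 effect was -0.24 ± 0.13 (SE; limma adjusted p = 0.606), at -0.24 within rats 1 to 4 and -0.25 within rats 5 to 8, and the other probe set gave -0.27 ± 0.17. Usp40 completed the 3 members (of 54) below all saline rats, where 7.84% of all tested probe sets lay below and 7.82% above; 0 members lay above. On rc_AA894080_g_at its signals were 131 and 118 on the left and 121 and 79.2 on the right in the ACTH rats, and 114 to 122 on the left and 116 to 127 on the right in the saline rats. The effect was -0.31 ± 0.15 (SE; limma adjusted p = 0.544), -0.16 within rats 1 to 4 and -0.46 within rats 5 to 8, and the second Usp40 probe set gave -0.13 ± 0.15. Among the remaining conjugating enzymes, Ube2m, which transfers Nedd8 to cullins, had 0.13 ± 0.15 and Ube2j2, an enzyme of the endoplasmic reticulum membrane, -0.14 ± 0.17.

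No member passed the test between the DEX and the saline rats. Over the whole array 0 of 5244 probe sets (0%) passed an adjusted p of 0.05 in limma, and 154 (2.94%) had an unadjusted p under 0.05; among the members it was 0 and 1 of 54. The members' median effect was 0.04 (33 of 54 positive, range -0.19 to 0.34), against 0.00 for all tested probe sets. This median depended on the animal: it was -0.10 without rat 3 and 0.20 without rat 7, and rats 1 to 4 alone gave 0.13 where rats 5 to 8 alone gave -0.07.

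By role, the DEX medians were 0.02 for the core (13 of 21 positive), 0.06 for the ATPases (5 of 6), 0.06 for the non-ATPases (6 of 9), -0.09 for the activators (0 of 3), 0.07 for the conjugating enzymes (7 of 11) and 0.01 for the deubiquitinases (2 of 4). The 95% interval lay within 1.5-fold for 41 of 54 members (75.9%), against 74.4% of all tested probe sets, and within 2-fold for all 54. The ACTH and DEX comparisons share the saline rats, so their values are given side by side and were not correlated.

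Usp37, a deubiquitinase of cyclin A, had the smallest p for DEX. On rc_AA893569_at DEX rats 3 and 7 had signals of 74.9 and 74.2 on the left and 98.5 and 89.8 on the right. Saline rats 2, 4, 6 and 8 had 86.3, 84.8, 73.5 and 78.9 on the left and 87.0, 83.0, 61.9 and 77.2 on the right. The right kidney was higher in both DEX rats, with changes of 0.33 and 0.23, and the saline changes ranged from -0.20 to 0.01.

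The effect on Usp37 was 0.34 ± 0.14 (SE; unadjusted p = 0.0268, limma adjusted p = 0.999), and it was 0.34 both within rats 1 to 4 and within rats 5 to 8. Ube2g1 on AF099093_at was likewise above all saline rats in its right over left change, at 0.18 and 0.19 in rats 3 and 7. The effect was 0.21 ± 0.13, and the other Ube2g1 probe set gave 0.12 ± 0.17. Rats 3 and 7 had AF099093_at signals of 66.4 and 72.3 on the left and 77.1 and 84.6 on the right. These right signals lay inside the saline range of 66.7 to 97.7. Under alternatives that kept all rats the effect was as low as 0.04. In all, 3 members lay above all saline rats, where 6.08% of tested probe sets did, and 1 lay below, where 6.33% did. The third member above was Ube2b on rc_AA799612_at (0.14 ± 0.18), whose other probe sets gave 0.09 ± 0.23 and -0.17 ± 0.21, and the one below was Ube2d2, a broadly acting conjugating enzyme, at -0.06 ± 0.13.

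Within the core, DEX effects were 0.32 ± 0.22, 0.21 ± 0.21 and 0.17 ± 0.22 for the probe sets of Psma2, 0.24 ± 0.23 for Psma6, and 0.16 ± 0.20 and 0.10 ± 0.26 for Psma5. Psmb2, a beta subunit with no protease site, had -0.18 ± 0.20 and -0.11 ± 0.22. The subunits of the core thus had values of both signs, none of them past the threshold. In the cap, Psmc3 had 0.22 ± 0.17, Psmd2 had 0.14 ± 0.19, and the probe sets of Psmd4 had 0.13 ± 0.20, 0.06 ± 0.18 and -0.03 ± 0.19. Among the ubiquitin enzymes, Ube2h had 0.11 ± 0.16 and Usp19, a deubiquitinase anchored in the endoplasmic reticulum and known from muscle wasting, had -0.19 ± 0.18. All of these have a limma adjusted p of 0.999. Without DEX rat 3 the values of rc_AI170403_at for Psma2 and of Psma6 were 0.03 and 0.01, and without DEX rat 7 they were 0.61 and 0.47. Psma6 also stood at 0.08 without saline rat 8.

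Setting both treatments against each other, the ACTH minus DEX difference in the right over left change had the largest member values. Over the array 30 probe sets (0.572%) passed an adjusted p of 0.05 and 12.2% had an unadjusted p under 0.05; among the 54 members it was 0 and 5. The members' median was -0.10, with 16 of 54 positive and a range of -0.64 to 0.20, against 0.02 for all tested probe sets. Taken within rats 1 to 4 alone that median was -0.27, in rats 5 to 8 alone 0.059, and it was 0.03 without rat 3 and -0.24 without rat 7. The non-ATPases had the lowest role median apart from the deubiquitinases, at -0.19 with 0 of 9 positive, and the deubiquitinases stood at -0.23 with 1 of 4.

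The 5 members with an unadjusted p under 0.05 were all lower with ACTH. Ube2g1 (AF099093_at) had a difference of -0.45 ± 0.15 (SE; limma adjusted p = 0.275), and its other probe set one of -0.39 ± 0.20. Usp37 had -0.44 ± 0.16 (adjusted p = 0.293), and within rats 1 to 4 and rats 5 to 8 the values were -0.39 and -0.49. For Ube2g1 they were -0.40 and -0.50, so these 2 differences were alike in both groups of animals. In DEX rat 3 the left Ube2g1 signal on AF099093_at was the low one, at 66.4 where rats 1, 2 and 4 had 75.7 to 107. The right signal of 77.1 lay inside the 72.7 to 97.7 of those rats.

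Ube2b had -0.64 ± 0.26 (adjusted p = 0.357) on M62388_at and -0.47 ± 0.21 (adjusted p = 0.392) on rc_AA799612_at, and -0.15 ± 0.24 on M62388_g_at. On M62388_at rats 1 to 4 alone gave -0.30 and rats 5 to 8 alone -0.98, and without rat 1 it was -1.10 with an adjusted p of 0.029. Psma2 on E03358cds_g_at had -0.59 ± 0.25 (adjusted p = 0.373), with -0.62 and -0.57 within the 2 groups of rats, and its other probe sets had -0.44 ± 0.25 and -0.42 ± 0.25. For this subunit the differences were alike in both groups, but they came from different kidneys. In DEX rat 3 (change 0.40) the left signal was the low one, at 381 where rats 1, 2 and 4 had 464 to 644, and the right signal of 507 lay inside the 477 to 550 of those rats. In ACTH rat 5 (change -0.79) the right signal was low, at 350 where rats 6 to 8 had 529 to 676.

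Further down the order, Psma6 had -0.33 ± 0.26, Psma4 -0.30 ± 0.24, and Psma5 -0.29 ± 0.23 and -0.18 ± 0.30. Psmd1 had -0.26 ± 0.19, -0.21 ± 0.21 and -0.19 ± 0.19, and Psmd4 had -0.24 ± 0.21, -0.23 ± 0.23 and -0.08 ± 0.22. Each of these intervals includes 0. Without DEX rat 3, Psma6 stood at -0.10, Psma4 at -0.0011, Psma5 on D10756_at at -0.12 and Psmd1 on rc_AA859869_s_at at -0.11, and Psma4 was at -0.08 without ACTH rat 5. Usp40 gave -0.28 ± 0.18 and -0.19 ± 0.18. The positive values were led by Ube2m at 0.20 ± 0.17 and by Psmb5 at 0.20 ± 0.22, 0.10 ± 0.23 and 0.07 ± 0.20. Both ACTH rats were below both DEX rats for 14 of 54 members, where 19.8% of tested probe sets were, and above them for 1 member, where 18.5% were.

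Within the ACTH rats alone, 187 probe sets (3.57%) differed between right and left kidney at an adjusted p of 0.05, and 18.4% had an unadjusted p under 0.05. Among the 54 members these counts were 0 and 6, all 6 lower on the right. Of the 6, 4 were conjugating enzyme probe sets, all of them of Ube2b or Ube2g1. The smallest p-values belonged to Ube2b, at -0.55 ± 0.18 (limma adjusted p = 0.121) and -0.43 ± 0.15 (0.122), and to Psma2, at -0.51 ± 0.18 (0.138). Both Ube2b probe sets passed without rat 1, at -1.02 (adjusted p = 0.00792) and -0.70 (0.0329), where the ACTH value is that of rat 5 alone. The median over members was -0.05, with 23 of 54 positive; it was -0.0042 without rat 1 and -0.09 without rat 5, and 0.02 in a fit without the replicate block.

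In the DEX rats 0 probe sets of the array (0%) passed and 5.91% had an unadjusted p under 0.05; of the members it was 0 and 1. The member was Usp37, at 0.28 ± 0.11 (limma adjusted p = 0.822), followed by Psma2 on rc_AI170403_at (0.34 ± 0.18) and Psmc3 (0.25 ± 0.14). All 6 ATPase probe sets had positive group values in DEX, ACTH and saline rats, with medians of 0.16, 0.10 and 0.07. The single animals differed. Saline rats 2, 4, 6 and 8 had 0, 6, 1 and 4 of the 6 higher on the right. DEX rats 3 and 7 had 6 and 3, and ACTH rats 1 and 5 had 5 and 6. In the saline rats 0 probe sets (0%) passed, 3.74% had an unadjusted p under 0.05, and 0 members did; the first members were Psmb4 at 0.15 ± 0.10, Psmc2 at 0.15 ± 0.12 and Psmc4 at 0.12 ± 0.10. The spread of the change between the 4 saline rats had a median SD of 0.16 for members and 0.17 for all tested probe sets.

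Because the treated kidneys are read against the left ones, the left kidneys were also compared by the treatment of the animal. Neither comparison had a call on the array (0 of 5244 each, 0%), and 0.4% for ACTH and 0.877% for DEX had an unadjusted p under 0.05; for members it was 0 of 54 in both. The left kidneys of ACTH rats had positive values for all 21 core probe sets, with a median of 0.18, and for 35 of 39 proteasome probe sets, while conjugating enzymes had 3 of 11 positive and a median of -0.04. Psma5 (0.24 ± 0.15 and 0.29 ± 0.22) and Psma6 (0.25 ± 0.18) had the smallest p-values, each with a limma adjusted p of 1.00. The 4 saline left kidneys in this comparison include the low one of rat 4, and its share in the core values was not tested.

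Left kidneys of DEX rats gave a median of -0.01 over members with 24 of 54 positive. Psmb4 had -0.26 ± 0.18, Psmc2 -0.21 ± 0.18 and Ube2g1 -0.17 ± 0.17. This median combines the low rat 3 with rat 7: without rat 3 it was 0.20 and without rat 7 it was -0.22. For Psmb4 on L17127_at the left signals were 959 in rat 3 and 1272 in rat 7, and 1478, 1248, 1502 and 1129 in saline rats 2, 4, 6 and 8.

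Several genes were read by more than 1 tested probe set, which gives a check within the arrays. For 14 such genes, all probe sets had the same sign in 11 for ACTH, in 7 for DEX and in 12 for ACTH over DEX. The probe sets of a gene differed by a median of 0.11, 0.11 and 0.10 in these comparisons and by at most 0.33, 0.31 and 0.49.

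Other genes of the pathway were taken from 5 lists of ubiquitin genes and activating enzymes, ligases and cullin partners, further deubiquitinases, shuttle factors, and proteasome assembly factors and regulators. Of 130 listed genes 33 were on the array and 31 were tested, with 43 probe sets. None of the 43 passed an adjusted p of 0.05 for ACTH, DEX or ACTH over DEX, and 2, 1 and 5 had an unadjusted p under 0.05, beside 9.44%, 2.94% and 12.2% of all tested probe sets. Positive values numbered 9, 24 and 14 of 43, with medians of -0.12, 0.02 and -0.16.

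For ACTH the smallest p-values were those of Nae1, a subunit of the Nedd8-activating enzyme, at -0.50 ± 0.17 (SE; limma adjusted p = 0.328), Eloc (elongin C) at -0.69 ± 0.29 (0.468) and the p53 ligase Mdm2 at -0.40 ± 0.20 (0.538). Nae1 changes were -0.29 and -0.73 in ACTH rats 1 and 5 and -0.18 to 0.12 in the saline rats. Those of Eloc were -0.10 and -1.065 (saline -0.33 to 0.38), and those of Mdm2 -0.14 and -0.58 (saline -0.25 to 0.43). Rat 1 thus lay inside the saline range for Eloc and Mdm2. The other probe sets gave -0.33 ± 0.18 for Nae1, and -0.17 ± 0.18 and -0.14 ± 0.19 for Mdm2. For DEX the smallest p-values were those of Brcc3, a deubiquitinase for Lys63 chains, at 0.76 ± 0.32, Cdc20 at -0.31 ± 0.17 and Nfe2l2 at 0.20 ± 0.14. Each had a limma adjusted p of 0.999. The Brcc3 changes were 0.72 and 0.17 in DEX rats 3 and 7 and 0.06, 0.13, -1.16 and -0.30 in saline rats 2, 4, 6 and 8, so 1 saline animal, rat 6, lay far from the rest. For ACTH over DEX they were Brcc3 at -1.16 ± 0.37 (adjusted p = 0.237), Nfe2l2 at -0.48 ± 0.19 (0.339) and the ligase Huwe1 at -0.50 ± 0.21 (0.358).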

How the data were processed

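Total RNA from both kidneys of 8 rats was labelled with biotin per the labels' protocols and hybridised to 16 one-colour arrays. The authors deposited 1 intensity per probe set and array on a linear scale (5.18 to 12664); for the software, probe summary and scaling, no statement was found: not given in the sources used here. Precision is limited by the number of arrays.

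From these, 59 control probe sets were removed, log2(value + 16) was taken, and the 40% of 8740 probe sets with the lowest mean were left out, leaving 5244; log2 differences on this scale understate changes of dim probe sets. Of the 8740, 7006 carry 1 symbol in the platform annotation, 308 several and 1426 none. Tests used limma 3.58.1 in R 4.3.3 (eBayes with trend, two-sided, Benjamini-Hochberg adjustment over 5244, threshold 0.05), with a term for each rat; left kidneys were fitted separately. The design text pairs the kidneys, and this pairing was followed. The deviations of a rat's kidneys correlated at 0.552 to 0.71, against a median of -0.366 between different rats. This contrast cannot show pairing by animal. Much of the variance separated the unexplained groups of rats, so kidneys of different animals within a group also share deviations. Deviations from means of few arrays also tend to oppose each other between animals, which lowers the value between rats. Standard errors are the model's.

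Named members were, per treatment comparison, those past the threshold, then the genes with the smallest p up to 12, plus members with both treated rats on one side of all saline rats; in the remaining comparisons the 3 smallest p. Members and lists were chosen with earlier results of these data known. The code was tested on simulated data. Alternatives covered the filter, the pseudocount, quantile normalization, the intensity trend, the replicate block, right kidneys alone, each rat left out, and rats 1 to 4 and 5 to 8 apart.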

Additional observations from a re-analysis of the deposited data

Results flagged for a closer look

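Among 73 groups of 4 or 8 samples checked, 2 had a sample far from the others, and chance alone flags about 1 in 20 groups. In the saline right kidneys, the median deviation of the activator probe sets (Psme1 and Psme2) from their means was 0.164 in rat 6, while the nearest animal stood at -0.02 and the lowest at -0.05. In the saline rats, the right over left change of Usp37 (rc_AA893569_at) was -0.20 in rat 6, while the nearest animal stood at -0.03 and the highest at 0.01. The causes were not tested.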

How the results depend on the processing

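The count of 0 called members held under every alternative that kept all rats, for all 8 comparisons; with rats left out it ranged from 0 to 1 for ACTH over saline and for ACTH over DEX and from 0 to 2 for right over left in ACTH rats, the higher value always without rat 1. Leaving out 1 rat moved the median over members between -0.10 and 0.203 for DEX over saline, -0.237 and 0.0257 for ACTH over DEX, -0.0675 and 0.211 for right over left in DEX rats, and -0.22 and 0.204 for left kidneys of DEX rats. For ACTH over DEX rats 1 to 4 alone gave -0.275 and rats 5 to 8 alone 0.0593. Without the replicate block, or with right kidneys alone, 0 members were called, the medians were 0.03, 0.01 and -0.00 for ACTH, DEX and ACTH over DEX, and Ube2d2 for DEX (0.0209) and Ube2m for ACTH over DEX (-0.000499) turned their sign. The array's calls for ACTH over saline numbered 16 after quantile normalization, 14 without the block, 0 in right kidneys alone and 9 to 114 with a rat left out; those for ACTH over DEX numbered 0 without the block and 2 to 100, those for DEX 0 to 3, and those for right over left in ACTH rats 51 without the block and 119 to 272. Of 898 alternative values for 53 named results, 14 had the other sign, 4 passed the threshold (Ube2b without rat 1) and 0 lost it. Beside Ube2d2 and Ube2m, sign changes came with a rat left out, and over these the values ranged from -0.0382 to 0.43 (Psmb5, ACTH), -0.0571 to 0.379 (Psmc4, ACTH), -0.0069 to 0.261 (Ube2m, ACTH), -0.0125 to 0.339 (Psma5, DEX), -0.428 to 0.0658 (Psmb2, DEX), -0.431 to 0.0813 (Ube2b on M62388_g_at, DEX), -0.0352 to 0.312 (Psmd2, DEX), -0.0825 to 0.479 (Psmb5, ACTH over DEX), -0.0532 to 0.626 (Psma5, left kidneys of ACTH rats) and -0.449 to 0.019 (Psmc2, left kidneys of DEX rats). With 60% of probe sets left out, Ube2g1 and Usp37 were too dim to be tested. With 1 animal left in a treated arm, that animal is assumed to vary like the others. The causes were not tested.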
